A study of Homo sapiens with 6 samples.

Results

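The glutathione and thioredoxin enzymes considered here are the rows of the count table whose symbol names a glutathione transferase (GSTA, GSTM, GSTO, GSTT, GSTP1, GSTK1, GSTZ1, MGST), a glutathione peroxidase (GPX), a peroxiredoxin (PRDX), a thioredoxin (TXN), a gamma-glutamyltransferase (GGT) or a glutaredoxin (GLRX), together with GCLC, GCLM, GSS, GSR, OPLAH, SRXN1, NFE2L2, KEAP1, NQO1 and HMOX1. The rule on the symbols found 54 genes among 58735 rows, and GENCODE release 44 classes all of these 54 as protein-coding. GSTT1 is not among them, so the report holds no value for it. RNA of 3 cultures of PANC1, an untreated cell line from a human pancreatic duct carcinoma, was compared with RNA of 3 cultures of PANC1OR, a subline selected from PANC1 by stepwise exposure to oxaliplatin, a DNA-binding platinum compound, over many passages. Both lines were grown in DMEM with serum. PANC1OR is 1 selected line, so the spread between cultures does not cover the spread between independently selected lines, and the sources used do not say whether the cultures held drug when RNA was taken.

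Glutathione is a tripeptide of glutamate, cysteine and glycine that is made by glutamate-cysteine ligase and glutathione synthetase, kept reduced by glutathione reductase, and used by transferases to tag electrophiles and by peroxidases to remove peroxides. Thioredoxin, with its reductase and the peroxiredoxins, forms a parallel thiol system. The transcription factor NRF2, held back by KEAP1, induces many of these genes, and conjugation of platinum drugs to glutathione is a long-studied route of drug handling in tumour cells.

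Libraries held 10199268 to 26394388 reads, and the members took 0.222% to 0.311% of the reads of a library. All 7 markers of the line reached 1 CPM in at least 1 library, but several differed between the lines. KRT8 was at 279 to 779 CPM and KRT18 at 241 to 457 CPM over the 6 libraries, and KRT7 was low throughout at 0.428 to 3.385 CPM. KRT19 was at 243, 465 and 269.8 CPM in PANC1 and 15.7, 17.1 and 36.9 CPM in PANC1OR. CDH1 (13.1 to 13.5 against 4.87 to 6.58 CPM) and EPCAM (13.01 to 16.1 against 5.78 to 9.605 CPM) were also lower in every PANC1OR library. So was the mesenchymal marker VIM, at 2727 to 2807 CPM in PANC1 against 1521 to 2180 CPM in PANC1OR. The part of these differences in the results below was not tested. The acinar markers reached at most 0.125 CPM and the islet markers INS, GCG and SST had 0 reads. Of 4 immune markers CD3E was at 0, and the list summed to 0.731 to 0.996 CPM in PANC1 and 3.14 to 6.94 CPM in PANC1OR. The 5 fibroblast markers summed to 82.9 to 98.9 and 113.5 to 298 CPM, nearly all of it COL1A1, and the part of either list in the results below was not tested. PANC1OR replicate 3 departed from its sister libraries with the GC content of the transcript: its median log2 difference from them was 1.32 for genes over 60% GC and -0.95 for genes under 40%. PANC1 replicate 2 did so to a smaller extent, at 0.34 and -0.25. Fold changes below are therefore given from all 6 libraries and again without PANC1OR replicate 3.

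Members moved in both directions, with GGT5, GPX7 and GPX3 lowest and MGST1, GGT7 and GLRX highest in PANC1OR relative to PANC1. Of the 54 members 43 passed the filter on low counts, and of these 6 rose (GSS, GGT7, GSTO2, MGST1, GPX8 and GLRX), 7 fell (GCLM, GGT5, GSTM3, GPX3, GPX7, PRDX1 and PRDX4) and 30 did not pass, at an adjusted p under 0.05 in edgeR's quasi-likelihood test over all genes. Over all 18751 tested genes the called share was 17.8%, with 10.3% higher and 7.50% lower in PANC1OR. GGT5 and GPX3 met the count filter through PANC1 alone and GGT1 through PANC1OR alone, so the 43 are not a neutral sample of the 54. The median log2 fold change (PANC1OR minus PANC1) was 0.07 over the tested members and 0.04 over all tested genes.

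Counted by ranges alone, 10 tested members lay higher in every PANC1OR library than in any PANC1 library and 9 lay lower, beside 18.9% and 17.6% of all tested genes (36.5% in either direction). These were the 13 called members and, higher, GGT1, GLRX2, GPX2 and PRDX2 and, lower, NQO1 and PRDX3. The authors' own thresholds, a log2 fold change beyond 2 and a false discovery rate under 0.01, were met by 5 members in this fit (GGT5, GGT7, GPX3, GPX7 and MGST1), beside 6.25% of all genes.

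Without PANC1OR replicate 3 the same 13 members were called in the same direction, and 8 more were called: GLRX2 and GLRX3 rose, and GSTP1, OPLAH, PRDX3, HMOX1, KEAP1 and NQO1 fell. The counts were then 8 risen and 13 fallen members, beside 22.1% and 22.0% of all genes (44.1% called), and the median log2 fold changes in that fit were -0.08 over the members and -0.02 over all genes. With PANC1 replicate 2 left out as well, 15 members rose and 15 fell, beside 29.0% and 29.5% of all genes (58.5% called). Members called there but in neither of the fits above were GGT1, GSR, GSTO1, MGST2, PRDX2, PRDX5 and TXN, which rose, and GSTM2 and GPX4, which fell. Of the 13 members called with 6 libraries, GGT5, GGT7, GLRX, GPX3, GPX7, MGST1, PRDX1 and PRDX4, 8 in all, were called in each of the 6 fits that leave out 1 library. The same share was not counted over all called genes, so whether the members stand out in this is not known.

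**Figure D1:**
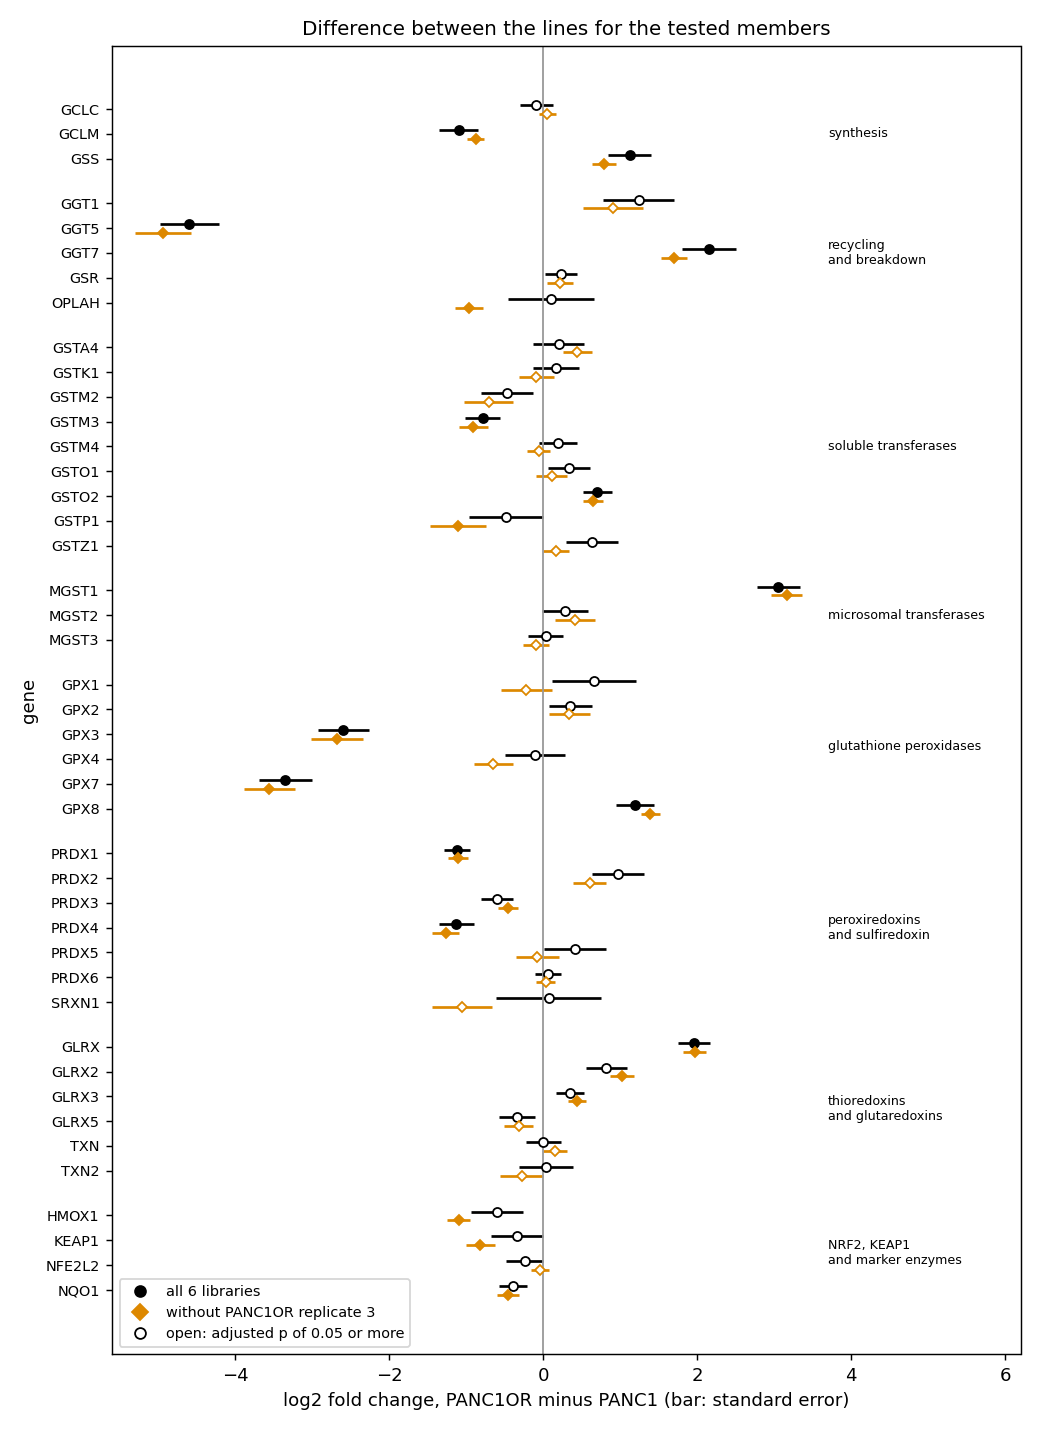
Log2 fold change of each tested member, PANC1OR minus PANC1, with its standard error, from all 6 libraries (black circles) and without PANC1OR replicate 3 (orange diamonds); filled symbols passed an adjusted p of 0.05. GGT5 lies farthest to the left at -4.60 and MGST1 farthest to the right at 3.05 with 6 libraries. OPLAH is among the members that change side between the 2 fits, as are GCLC, GPX1, GSTK1, GSTM4, MGST3, PRDX5, SRXN1 and TXN2.

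Of the regulators and marker enzymes of the NRF2 pathway, 4 genes, 0 passed with 6 libraries and no offsets for GC content. Without PANC1OR replicate 3, 3 fell (KEAP1, NQO1 and HMOX1), and with 6 libraries and GC offsets 3 fell (NFE2L2, KEAP1 and HMOX1). NFE2L2, which encodes NRF2, was at 191, 160.5 and 165 CPM in PANC1 replicates 1 to 3 and at 174, 164 and 100.3 CPM in PANC1OR replicates 1 to 3. The lines overlapped, and the log2 fold change was -0.24 ± 0.24 (SE; adjusted p = 0.571; -0.04 ± 0.12 without PANC1OR replicate 3). With offsets for GC content it was -0.30 ± 0.10 (adjusted p = 0.0332). Its reads are uncertain because 23.4% of its annotated exon bases also lie in exons of HNRNPA3 on the opposite strand, at 439.7 CPM in PANC1 and 494 CPM in PANC1OR. KEAP1, the adaptor that delivers NRF2 for degradation, read 66.0, 101 and 67.3 CPM in PANC1 and 42.1, 47.0 and 95.8 CPM in PANC1OR. Its value was -0.34 ± 0.34 (adjusted p = 0.574), and -0.82 ± 0.19 (adjusted p = 0.00915) without PANC1OR replicate 3, the one resistant library inside the PANC1 range. With 6 libraries and GC offsets KEAP1 was at -0.40 ± 0.11 (adjusted p = 0.0202).

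Neither of the 2 enzymes commonly read as NRF2 output passed with 6 libraries and no GC offsets. NQO1, a quinone reductase, was at 115, 155 and 129 CPM in PANC1 and 97.2, 97.5 and 109 CPM in PANC1OR. All resistant libraries lay below all parental ones, and the log2 fold change was -0.39 ± 0.18 (adjusted p = 0.197; -0.46 ± 0.14 and 0.0276 without PANC1OR replicate 3). HMOX1, which degrades heme, was at 55.7, 70.5 and 53.1 CPM in PANC1 and 27.8, 28.5 and 62.1 CPM in PANC1OR, so replicates 1 and 2 stood below the parental range and replicate 3 within it. It was -0.60 ± 0.34 (adjusted p = 0.286) with 6 libraries and -1.10 ± 0.15 (adjusted p = 0.000612) without PANC1OR replicate 3. With 6 libraries and GC offsets HMOX1 fell (-0.67 ± 0.11, adjusted p = 0.000851), while NQO1 did not pass (-0.39 ± 0.17, adjusted p = 0.1).

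To show which members carry the letters of the antioxidant response element, to which NRF2 binds with small MAF proteins, the promoter windows of RefSeq (GRCh38.p14) were searched on both strands for TGACNNNGC. A window holds 250 bases before and 50 after a transcription start, and 42 members had 55 windows. The motif stood in 10 of these windows (18.2%), beside 13.3% of all 35116 windows. It was in 1 of 5 risen members with a window (MGST1, where it lies after the start), 1 of 5 fallen ones (GCLM) and 6 of 23 that were tested and not called. The upstream matches of the tested members are shown because they include the fallen gene GCLM and both KEAP1 and GSTP1. Each runs 5′ to 3′ on the strand of its gene with the motif, or its reverse complement, in capitals:
GCLM: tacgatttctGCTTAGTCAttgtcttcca
KEAP1, farther match: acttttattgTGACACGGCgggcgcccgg
KEAP1, nearer match: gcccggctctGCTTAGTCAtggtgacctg
GSTP1: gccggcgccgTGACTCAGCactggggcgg
GSTO1, farther match: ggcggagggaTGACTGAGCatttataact
GSTO1, nearer match: cgagatgcttTGACACAGCcccttaagat
GPX2: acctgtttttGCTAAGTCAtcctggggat
GGT1: ggaaggaggaGCTGGGTCAcagcagggaa
GSTA4: ccgggaccgcTGACCTGGC

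The GCLM match lies 34 to 26 bases before the start, at chr1:93909446-93909474 (minus strand) with its flanks. In KEAP1 the matches begin 54 and 31 bases before 1 of its 2 listed starts, at chr19:10502807-10502835 and chr19:10502784-10502812 (minus strand). The GSTP1 match begins 66 bases before the start, at chr11:67583736-67583764 (plus strand), and it is the one match shown here that also holds TGACTCA, the AP-1 motif. A match is a run of letters and not a measured binding site, and genes without one in these windows can carry it elsewhere.

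Of the 3 synthesis genes 1 rose, 1 fell and 1 did not pass. GCLM encodes the modifier subunit of glutamate-cysteine ligase and was at 79.4, 70.6 and 70.7 CPM in PANC1 against 40.2, 40.2 and 22.6 CPM in PANC1OR. The lines did not overlap, with a log2 fold change of -1.10 ± 0.25 (adjusted p = 0.0202; -0.88 ± 0.11 and 0.000488 without PANC1OR replicate 3). Leaving out PANC1 replicate 1, 2 or 3 raised the adjusted p to 0.0875, 0.0604 and 0.0753. GCLM lies on chromosome 1 at 93885199 to 93909456 (GRCh38, minus strand). GCLC, the catalytic subunit, was at 46.1, 43.2 and 43.8 CPM in PANC1 and 47.1, 45.8 and 31.8 CPM in PANC1OR (-0.09 ± 0.21, adjusted p = 0.82; 0.05 ± 0.11 without PANC1OR replicate 3). PANC1OR replicate 1 lay above the PANC1 range, replicate 2 within it and replicate 3 below it.

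The balance of the 2 ligase subunits was also read within each library, where scaling between libraries plays no part. GCLM had 1.72, 1.63 and 1.615 reads per GCLC read in the PANC1 libraries and 0.853, 0.877 and 0.712 in the PANC1OR libraries. All parental libraries thus had more GCLM than GCLC reads and all resistant ones fewer. Reads are not corrected for length. Per kilobase of annotated exon GCLM stayed above GCLC in PANC1OR replicates 1 to 3 (7.405 against 5.464, 7.412 against 5.319 and 4.17 against 3.689 CPM). The ratio was thus lower in PANC1OR, but GCLM did not drop below GCLC per length. The exact two-sided permutation test of the ratio gave p = 0.1, the smallest that 3 against 3 allows, and the same after adjustment over the 6 ratios computed. Each of the 6 pairs holds a member called in these same data. The separation of the ratios is therefore not independent of those calls and adds no support to them.

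GSS encodes glutathione synthetase, which adds glycine in the second step, and moved the other way. It was at 39.3, 55.7 and 40 CPM in PANC1 and at 76.8, 79.2 and 136 CPM in PANC1OR, with replicate 3 highest. The log2 fold change was 1.12 ± 0.28 (adjusted p = 0.0284), or 0.79 ± 0.16 (adjusted p = 0.00448) without that library. The call was lost without PANC1 replicate 1, 2 or 3, at adjusted p of 0.132, 0.0519 and 0.139. The opposite-strand gene MYH7B shares 138 exon bases with GSS and averaged 2.41 CPM in PANC1 and 5.43 CPM in PANC1OR.

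Among the genes of recycling and breakdown, 2 genes of the gamma-glutamyltransferase family moved in opposite directions. Whether their products have the same activity was not tested. GGT5 fell from 3.74, 3.76 and 3.85 CPM in PANC1 to 0.112, 0.125 and 0.248 CPM in PANC1OR, or from 159 reads in all to 8. Its log2 fold change of -4.60 ± 0.38 (adjusted p = 0.00014) was the lowest of the members, and -4.94 ± 0.36 (adjusted p = 1.78e-05) without PANC1OR replicate 3. GGT7 rose from 4.98, 6.37 and 7.09 CPM to 20.5, 19.6 and 41.9 CPM (2.15 ± 0.35, adjusted p = 0.00414; 1.70 ± 0.17 without PANC1OR replicate 3, the highest library). PANC1 libraries had 1.33, 1.69 and 1.84 GGT7 reads per GGT5 read, and PANC1OR libraries 183, 156.5 and 169. GGT5 lies on chromosome 22 at 24219654 to 24245108 and GGT7 on chromosome 20 at 34844720 to 34872856, both on the minus strand.

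GGT1, the best-known member of the family, was at 0.489 to 1.15 CPM in PANC1 and 1.20 to 2.56 CPM in PANC1OR. These ranges did not overlap, but the test did not pass (1.24 ± 0.46, adjusted p = 0.108; 0.90 ± 0.39 and 0.096 without PANC1OR replicate 3), and near-identical GGT copies make its reads uncertain. GGT6 had 5 reads over the 6 libraries and was not tested. GSR, the reductase that restores reduced glutathione, lay at 34.4, 50.7 and 36.0 CPM in PANC1 and within 46.5 to 48.0 CPM in all PANC1OR libraries (0.23 ± 0.21, adjusted p = 0.524; 0.22 ± 0.17 without PANC1OR replicate 3). With PANC1 replicate 2 left out as well, GSR was called as risen (0.41 ± 0.08, adjusted p = 0.000425). OPLAH, the 5-oxoprolinase that returns glutamate from glutathione breakdown, depended on 1 library. It was at 18.0, 21.9 and 22.0 CPM in PANC1, at 11.9 and 9.05 CPM in PANC1OR replicates 1 and 2, and at 45.9 CPM in replicate 3 (0.10 ± 0.56, adjusted p = 0.931; -0.97 ± 0.18 and 0.00266 without replicate 3).

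**Figure D2:**
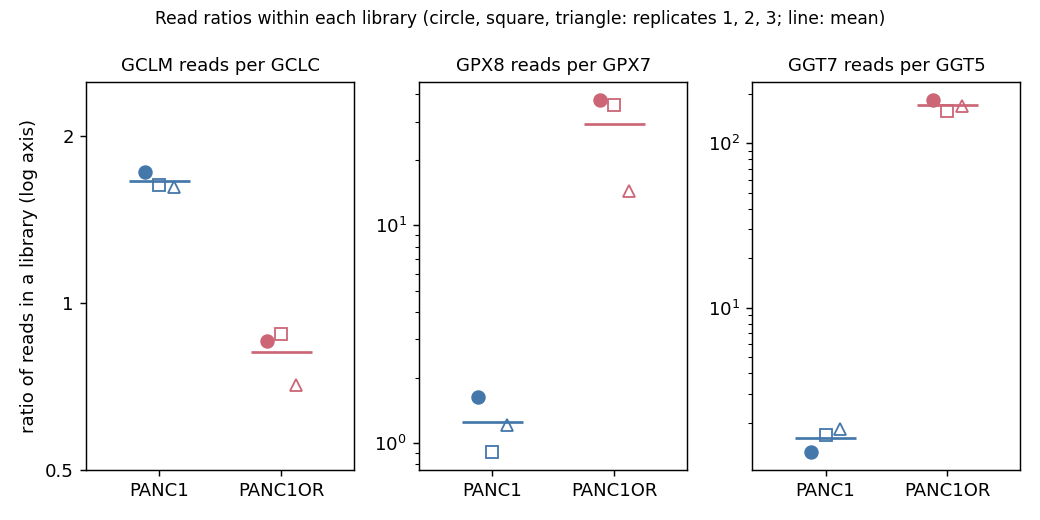
Reads of 1 gene divided by reads of another in the same library, on log axes, for the 2 ligase subunits GCLM and GCLC, the endoplasmic reticulum peroxidases GPX8 and GPX7, and the gamma-glutamyltransferases GGT7 and GGT5; symbols are replicates and lines are means. Each pair holds a called member, and no ratio overlaps between the lines: GCLM per GCLC is 1.615 to 1.72 in PANC1 and 0.712 to 0.877 in PANC1OR.

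Of the 17 soluble transferases 9 could be tested, and 1 rose and 1 fell. GSTO2, an omega-class enzyme with dehydroascorbate reductase activity, rose from 28.45, 36.6 and 30.03 CPM in PANC1 to 48.4, 51.7 and 54.2 CPM in PANC1OR (0.70 ± 0.19, adjusted p = 0.039; 0.65 ± 0.13 without PANC1OR replicate 3). All resistant libraries exceeded all parental ones, yet the adjusted p rose to 0.188, 0.187, 0.116 and 0.128 when PANC1 replicate 1, PANC1 replicate 3, PANC1OR replicate 1 or PANC1OR replicate 2 was left out. GSTM3, a mu-class transferase, was at 47.25, 72.3 and 52.9 CPM in PANC1 and 28.7, 32.9 and 38.15 CPM in PANC1OR. Its log2 fold change was -0.79 ± 0.23, at an adjusted p of 0.0499 that passed the threshold narrowly, and -0.91 ± 0.19 (adjusted p = 0.00474) without PANC1OR replicate 3. Without any 1 of the other libraries the adjusted p was 0.083 to 0.174.

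GSTP1, the pi-class transferase that predominates in many tumours, varied more within each line than between the lines. It was at 129, 338 and 162.5 CPM in PANC1 and at 89.6, 105 and 257 CPM in PANC1OR, the highest value of each line being in the library that departs by GC content. The transcript has 62.5% GC. With 6 libraries the log2 fold change was -0.48 ± 0.48 (adjusted p = 0.574), and without PANC1OR replicate 3 it was -1.11 ± 0.36 (adjusted p = 0.0357). With PANC1 replicate 2 left out as well it was smaller, at -0.61 ± 0.10 (adjusted p = 8.785e-05). The part of GC content in this difference was not tested beyond a fit with GC offsets, in which the adjusted p was 0.0906.

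The remaining tested soluble transferases passed neither with 6 libraries and no GC offsets nor without PANC1OR replicate 3. GSTO1, the sister omega-class gene beside GSTO2 on chromosome 10, was at 59.0 to 98.4 CPM in PANC1 and 74.1 to 120.1 CPM in PANC1OR, and GSTK1, the mitochondrial and peroxisomal kappa enzyme, at 30.2 to 56.5 and 38.3 to 63.5 CPM. GSTM4 averaged 10.7 and 12.25 CPM in the 2 lines, GSTZ1, which acts in tyrosine breakdown, 11.35 and 17.65 CPM, GSTA4, which conjugates lipid aldehydes, 3.69 and 4.21 CPM, and GSTM2 1.95 and 1.45 CPM. Their log2 fold changes with 6 libraries and then without PANC1OR replicate 3 were 0.33 and 0.11 for GSTO1, 0.17 and -0.09 for GSTK1, 0.19 and -0.06 for GSTM4, 0.63 and 0.16 for GSTZ1, 0.20 and 0.44 for GSTA4, and -0.47 and -0.71 for GSTM2. With PANC1 replicate 2 left out as well, GSTO1 was called as risen (0.33 ± 0.09, adjusted p = 0.00654) and GSTM2 as fallen (-0.79 ± 0.32, adjusted p = 0.0426). No reads were found for GSTA1, GSTA2, GSTA3, GSTA5, GSTM1 and GSTT4 in any library. A count of 0 over the 6 libraries allows up to 0.031 CPM, taking 3 reads as the limit and counting error only. That limit does not cover reads that match several similar genes, whose handling is not given in the sources. GSTM5 had 5 reads in all and GSTT2 had 2.

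Of the 3 microsomal transferases, membrane enzymes that also reduce lipid peroxides, MGST1 rose and the others did not pass. MGST1 was at 4.67, 4.60 and 2.81 CPM in PANC1 and at 35.6, 36.3 and 28.0 CPM in PANC1OR. The lowest resistant library lay well above the highest parental one, and the log2 fold change was 3.05 ± 0.28 (adjusted p = 0.000227), the highest among the members, with 3.16 ± 0.20 without PANC1OR replicate 3. It lies on chromosome 12 at 16347142 to 16609259, and no exon base is shared with an opposite-strand gene in GENCODE. MGST3 was at 29.5 to 43.1 CPM in PANC1 and 31.3 to 40.5 CPM in PANC1OR (0.03 ± 0.23, adjusted p = 0.9575; -0.09 ± 0.17 without PANC1OR replicate 3), and MGST2 at 2.74 to 5.22 and 3.88 to 5.495 CPM (0.28 ± 0.30, adjusted p = 0.603; 0.41 ± 0.26 without it). With PANC1 replicate 2 left out as well, MGST2 was called as risen (0.60 ± 0.20, adjusted p = 0.0191). MAML3 on the opposite strand shares 7.945% of the exon bases of MGST2, at 37.37 CPM in PANC1 and 32.31 CPM in PANC1OR. Within a library MGST1 had 0.152, 0.1065 and 0.0952 reads per MGST3 read in PANC1 and 1.14, 1.08 and 0.692 in PANC1OR.

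**Figure D3:**
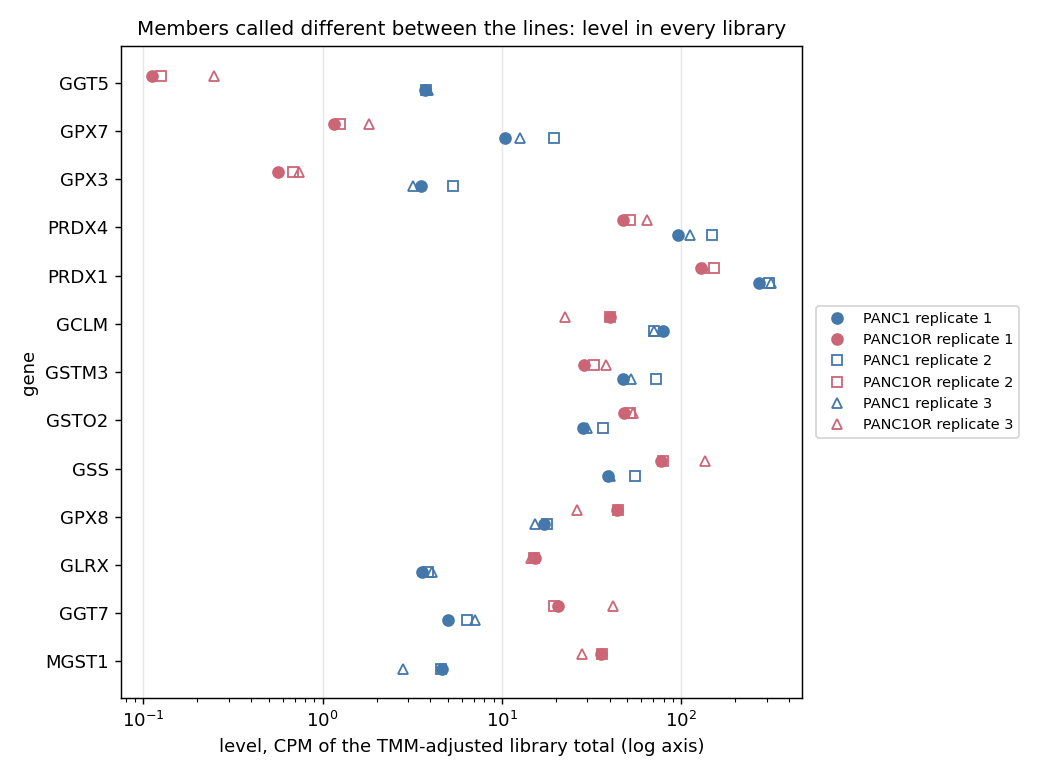
Level of the 13 called members in each library, in CPM on a log axis, ordered by log2 fold change, with PANC1 in blue and PANC1OR in red; circles, squares and triangles are replicates 1, 2 and 3. No member shown overlaps between the lines, and PANC1OR replicate 3 lies apart from replicates 1 and 2 for GCLM, GSS, GPX8 and GGT7. It also lies apart for GGT5, but there PANC1OR replicates 1, 2 and 3 hold only 3, 2 and 3 reads.

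Among the 8 glutathione peroxidases, the 2 enzymes of the endoplasmic reticulum moved apart. GPX7 fell from 10.5, 19.6 and 12.7 CPM in PANC1 to 1.16, 1.25 and 1.82 CPM in PANC1OR (-3.35 ± 0.34, adjusted p = 0.000401; -3.56 ± 0.33 without PANC1OR replicate 3). GPX8 rose from 17.1, 17.9 and 15.4 CPM to 43.7, 44.7 and 26.3 CPM, replicate 3 being the lowest resistant library. Its log2 fold change was 1.19 ± 0.25 (adjusted p = 0.0143), and 1.39 ± 0.12 (adjusted p = 6.01e-05) without that library, while leaving out any 1 of the others gave an adjusted p of 0.0519 to 0.0867. GPX7 lies on chromosome 1 at 52602371 to 52609051 and GPX8 on chromosome 5 at 55160167 to 55167297. GPX8 had 0.91 to 1.64 reads per GPX7 read in PANC1 and 14.45 to 37.7 in PANC1OR.

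GPX3, the secreted plasma peroxidase, fell from 3.55, 5.33 and 3.18 CPM to 0.561, 0.687 and 0.743 CPM (-2.60 ± 0.33, adjusted p = 0.00126; -2.68 ± 0.34 without PANC1OR replicate 3). The resistant values rest on 35 reads in all. GPX4, which reduces lipid hydroperoxides in membranes and restrains ferroptosis, was at 180, 346 and 206 CPM in PANC1 and 145.5, 168 and 363 CPM in PANC1OR, overlapping widely (-0.11 ± 0.39, adjusted p = 0.889; -0.65 ± 0.25 and 0.07 without PANC1OR replicate 3). With PANC1 replicate 2 left out as well, GPX4 was called as fallen (-0.32 ± 0.08, adjusted p = 0.003691). GPX1, the abundant cytosolic peroxidase, read 28.5, 71.2 and 36.8 CPM in PANC1 and 38.4, 39.5 and 137 CPM in PANC1OR. Its log2 fold change of 0.66 ± 0.55 (adjusted p = 0.493) became -0.22 ± 0.33 (adjusted p = 0.612) without replicate 3, with the test missed both times. GPX2, an epithelial peroxidase, averaged 1.54 and 1.99 CPM (0.35 ± 0.28, adjusted p = 0.466; 0.34 ± 0.27 without PANC1OR replicate 3), GPX6 had 1 read and GPX5 had 0 reads.

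Of the 6 peroxiredoxins and sulfiredoxin, PRDX1 and PRDX4 fell and no member rose. PRDX1, the main cytosolic peroxiredoxin, was at 274, 310.5 and 319 CPM in PANC1 and 128.5, 153 and 135 CPM in PANC1OR. The lines did not overlap, and the log2 fold change was -1.12 ± 0.17 (adjusted p = 0.00292; -1.11 ± 0.13 without PANC1OR replicate 3). MMACHC on the opposite strand shares 29.8% of its exon bases, at 31.9 CPM in PANC1 and 25.7 CPM in PANC1OR. PRDX4, the peroxiredoxin of the endoplasmic reticulum, was at 96.3, 148.5 and 112 CPM in PANC1 and 47.4, 51.7 and 64.4 CPM in PANC1OR (-1.13 ± 0.23, adjusted p = 0.0109; -1.27 ± 0.18 without PANC1OR replicate 3).

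The other peroxiredoxins stayed short of the threshold with 6 libraries. PRDX3, the mitochondrial form, was lower in every PANC1OR library (115 to 176 CPM) than in any PANC1 library (198.5 to 244 CPM), at -0.60 ± 0.21 (adjusted p = 0.0884; -0.46 ± 0.13 and 0.0208 without PANC1OR replicate 3). PRDX2 was higher in every PANC1OR library, at 12.6 to 24.7 against 6.35 to 11.3 CPM (0.97 ± 0.34, adjusted p = 0.0934; 0.60 ± 0.22 and 0.0546 without PANC1OR replicate 3). PRDX6, which reduces phospholipid peroxides with glutathione as donor, was at 117 ± 13.3 and 122 ± 5.27 CPM (SD, n = 3), with a log2 fold change of 0.06 ± 0.17 (SE; 0.03 ± 0.12 without PANC1OR replicate 3). PRDX5 averaged 159 and 211 CPM with PANC1OR replicate 3 at 332 CPM, and its value of 0.41 ± 0.40 (adjusted p = 0.555) became -0.08 ± 0.28 (adjusted p = 0.835) without that library. With PANC1 replicate 2 left out as well, PRDX5 was called as risen (0.29 ± 0.10, adjusted p = 0.0197). SRXN1, which repairs overoxidized peroxiredoxins, was at 1.12 to 2.51 CPM in PANC1 and at 0.934, 0.749 and 4.29 CPM in PANC1OR. It turned from 0.07 ± 0.68 (adjusted p = 0.964) to -1.06 ± 0.39 (adjusted p = 0.0559) without PANC1OR replicate 3, passing in neither fit. The summed level of these 7 genes was 819, 1036 and 937 CPM in PANC1 and 598, 681 and 800.5 CPM in PANC1OR.

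Of the thioredoxins and glutaredoxins, GLRX rose and the 5 others did not pass with 6 libraries. GLRX, the cytosolic glutaredoxin that removes glutathione from protein thiols, was at 3.61, 3.86 and 4.10 CPM in PANC1 and 15.4, 15.1 and 14.6 CPM in PANC1OR. The libraries of a line lay close together, and the log2 fold change was 1.96 ± 0.21 (adjusted p = 0.000487; 1.97 ± 0.15 without PANC1OR replicate 3). GLRX2, a mitochondrial and nuclear glutaredoxin, was at 20.7, 15.8 and 15.5 CPM in PANC1 and 33.8, 37.1 and 21.0 CPM in PANC1OR. Its log2 fold change was 0.82 ± 0.27 (adjusted p = 0.0746), and 1.02 ± 0.16 (adjusted p = 0.00124) without PANC1OR replicate 3. RO60 on the opposite strand shares 7.746% of its exon bases, at 102.8 CPM in PANC1 and 149.8 CPM in PANC1OR. RO60 also rose without that library (0.88, adjusted p = 0.003947), and the part of its reads in the GLRX2 values was not tested. GLRX3, which serves iron-sulfur trafficking, was at 136 to 167 and 161 to 206 CPM (0.35 ± 0.18, adjusted p = 0.25; 0.44 ± 0.12 and 0.019 without PANC1OR replicate 3).

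TXN, which encodes thioredoxin, showed the smallest log2 fold change of the tested members with 6 libraries. With PANC1 replicate 2 and PANC1OR replicate 3 both left out, TXN was called as risen (0.29 ± 0.08, adjusted p = 0.007443). It was at 82.6, 112 and 82.3 CPM in PANC1 and 93.3, 113 and 71.9 CPM in PANC1OR (0.00 ± 0.23, adjusted p = 0.994; 0.15 ± 0.16 without PANC1OR replicate 3). TXN2, the mitochondrial thioredoxin, averaged 32.1 and 32.6 CPM (0.03 ± 0.35, adjusted p = 0.974; -0.28 ± 0.28 without PANC1OR replicate 3), and GLRX5, the mitochondrial iron-sulfur glutaredoxin, 36.1 and 28.4 CPM (-0.34 ± 0.23, adjusted p = 0.369; -0.32 ± 0.19 without it). GLRX had 0.0344 to 0.0498 reads per TXN read in PANC1 and 0.134 to 0.203 in PANC1OR.

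The members also differed in level among themselves, compared per length as CPM per kilobase of annotated exon. By the mean of 3 libraries the highest in PANC1 were PRDX5 (185), PRDX1 (179), GPX4 (133), GSTP1 (119) and TXN (91.5). PRDX5 led there through replicate 2 alone, at 272 against 185 CPM per kilobase for PRDX1, while PRDX1 was above PRDX5 in replicates 1 (163 against 124) and 3 (190 against 158). In PANC1OR the means on this scale were 245.5 for PRDX5, 123 for GPX4, 91.7 for TXN, 85.4 for GSTP1 and 82.6 for PRDX1. Without PANC1OR replicate 3 they were 175.5 for PRDX5, 102 for TXN, 85.3 for GPX4, 83.8 for PRDX1 and 55.2 for GSTP1, so that only PRDX5 kept its place. Per kilobase PRDX1 was at 76.4 to 91.2 in all PANC1OR libraries and at 163 to 190 in all PANC1 libraries. Per length, GPX7 stood above GPX8 in PANC1 (8.42 against 4.15 CPM per kilobase) and below it in PANC1OR (0.832 against 9.45). MGST1 was below MGST3 in PANC1 (0.541 against 4.28 CPM per kilobase) and close to it in PANC1OR (4.475 against 4.36, and 4.83 against 4.02 without PANC1OR replicate 3). These values depend on GENCODE's exon lengths, which pool all transcripts of a gene.

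**Figure D4:**
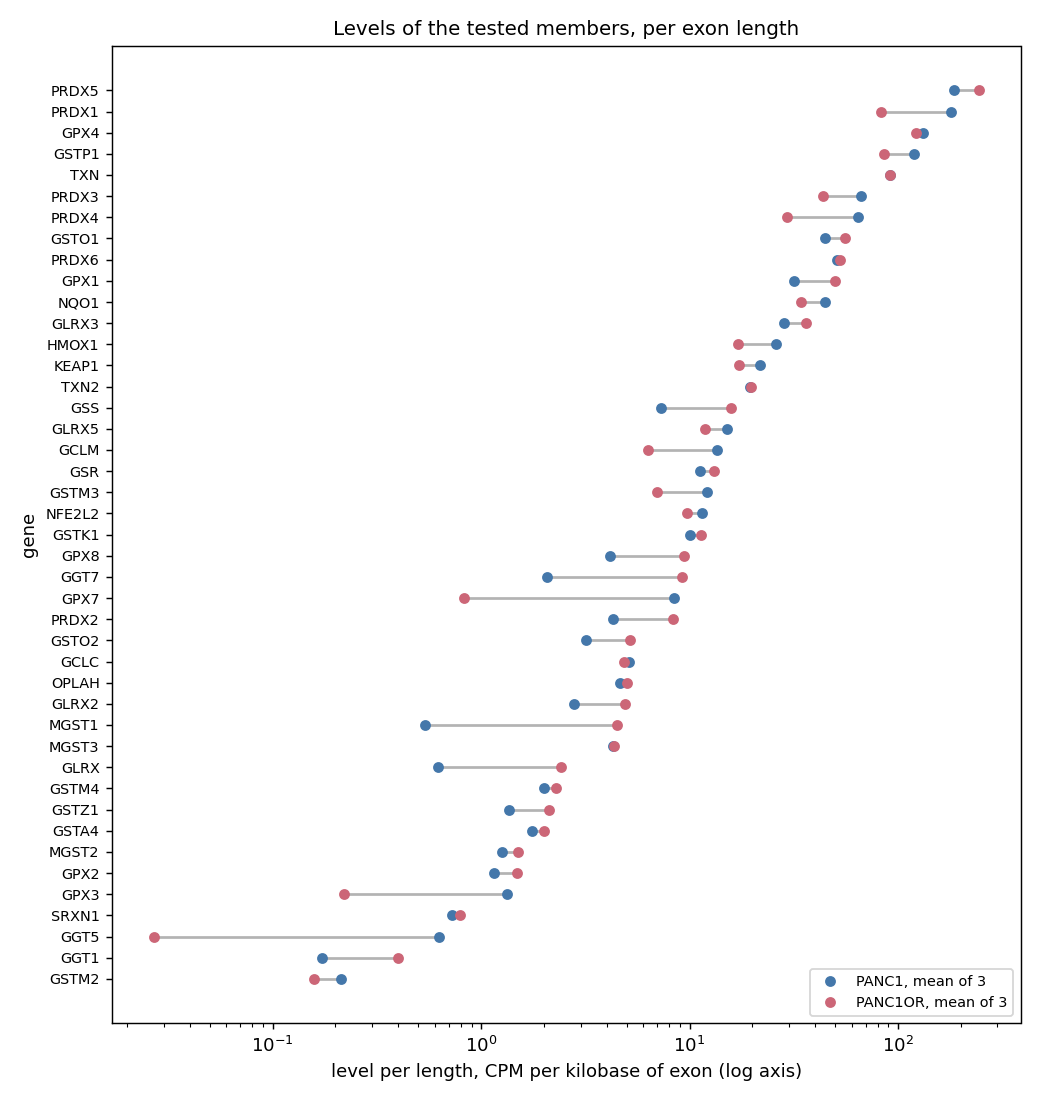
Mean level of each tested member in CPM per kilobase of exon on a log axis, with PANC1 in blue, PANC1OR in red and a grey line between them, ordered by the higher of the 2. By these means PRDX5, PRDX1, GPX4 and GSTP1 lead, an order that PANC1 replicate 2 and PANC1OR replicate 3 alter, and GGT5, MGST1, GPX7 and GPX3 have the widest gaps.

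The GC departure of PANC1OR replicate 3 was visible among the members themselves. Of 12 tested members with over 55% GC, 11 were more than 1.5 times as high in that library as in the mean of replicates 1 and 2, GPX3 being the exception at 1.19 times. Of 14 members under 45% GC, 0 passed 1.5 times and 10 were below 1. SRXN1 at 51.7% GC had the highest ratio, 5.10, followed by OPLAH at 4.38 and GPX1 at 3.53. When the fit carried GC offsets 11 members rose and 11 fell, beside 20.0% and 19.1% of all genes (39.1% called). GGT1, GLRX2, GLRX3, GSTZ1 and PRDX2 were the added risen members and HMOX1, KEAP1, NFE2L2 and PRDX3 the added fallen ones. All 13 members called with 6 libraries kept their call and direction there.

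**Figure D5:**
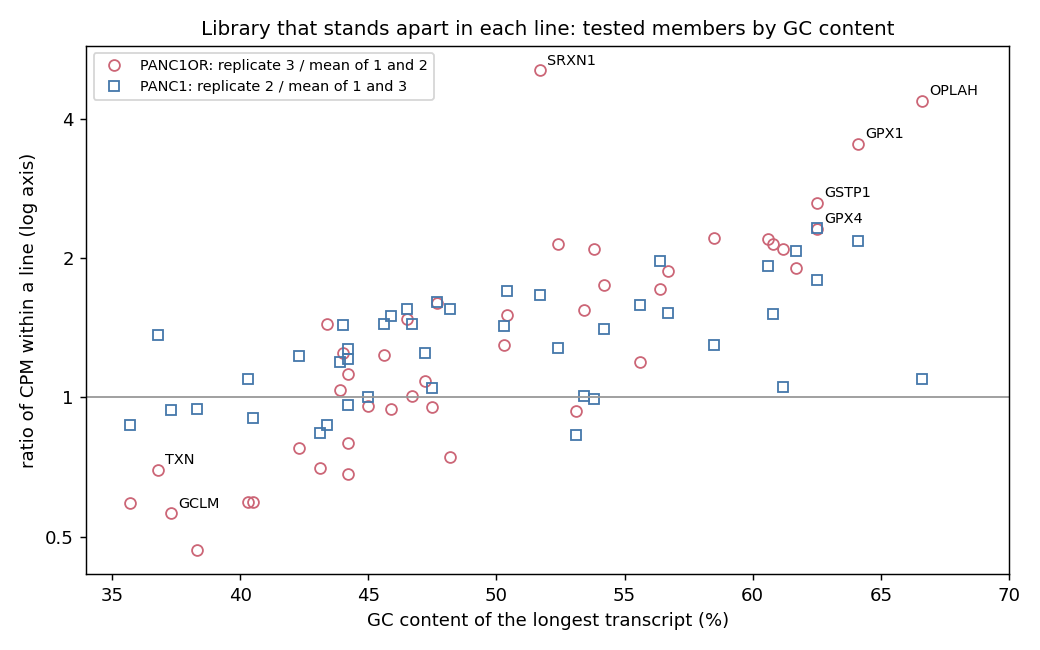
Ratio of the departing library to the mean of the other libraries of its line, on a log axis, against the GC content of the longest transcript, for the tested members; red circles are PANC1OR replicate 3 and blue squares PANC1 replicate 2. Ratios in PANC1OR replicate 3 lie below 1 for most members under 45% GC and above 1.5 for 11 of 12 over 55%, with SRXN1 highest at 5.10.

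Genes that work beside the members were described by 5 lists, whose counts stand beside 10.3% risen and 7.50% fallen over all genes with 6 libraries, and 22.1% and 22.0% without PANC1OR replicate 3. In this and the following paragraphs the second fold change or median is the one without that library. Of 20 thioredoxin reductases and thioredoxin-fold partners 1 rose and 2 fell (4 and 5 without PANC1OR replicate 3), with a median log2 fold change of -0.07 (-0.08). TXNRD1, the cytosolic thioredoxin reductase, fell from 429, 502 and 421 CPM to 209, 219 and 189 CPM (-1.13 ± 0.17, adjusted p = 0.00285; -1.08 ± 0.13). TXNRD3, a further reductase gene, fell (-0.87 ± 0.19; -0.81 ± 0.12). TXNIP, which binds and inhibits thioredoxin, rose from 1.18, 1.99 and 1.84 CPM to 5.05, 5.75 and 5.12 CPM (1.68 ± 0.28, adjusted p = 0.00462; 1.70 ± 0.25). TXNL4A did not pass with 6 libraries (-0.59 ± 0.18, adjusted p = 0.0576) and passed without PANC1OR replicate 3 (-0.71 ± 0.12, adjusted p = 0.00212). TXNRD1 and TXNIP thus moved in opposite directions, while TXN did not pass with 6 libraries or without PANC1OR replicate 3.

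Of 20 tested genes for cysteine supply, glutathione turnover and conjugate export 4 rose and 0 fell (8 and 4 without PANC1OR replicate 3), with a median of 0.12 in both fits. The risen genes were the cystine importer gene SLC7A11 (1.78 ± 0.33 and 2.05 ± 0.15), the transsulfuration gene CBS (1.29 ± 0.27 and 1.10 ± 0.21), CHAC1, whose enzyme degrades glutathione in the cytosol (3.60 ± 0.50 and 2.93 ± 0.23), and ANPEP, which encodes a membrane aminopeptidase (1.16 ± 0.26 and 0.81 ± 0.11). CHAC1 was at 108 CPM in PANC1OR replicate 3 against 35.5 and 40.8 CPM in replicates 1 and 2. Of 13 NADPH supply genes 1 rose and 1 fell (2 and 4 without PANC1OR replicate 3), with a median of -0.14 (-0.23): NNT, the mitochondrial transhydrogenase gene, at 0.72 ± 0.17 (0.78 ± 0.11) and IDH2, which encodes mitochondrial isocitrate dehydrogenase, at -1.70 ± 0.35 (-2.12 ± 0.23). PGD, which encodes phosphogluconate dehydrogenase, did not pass with 6 libraries (-0.61 ± 0.23) and passed without PANC1OR replicate 3 (-0.77 ± 0.18).

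Of 17 tested other antioxidant genes 3 rose and 1 fell (4 and 3 without PANC1OR replicate 3), with a median of 0.02 (-0.03). CAT, which encodes catalase, rose from 70.5, 78.7 and 74.2 CPM to 144, 141 and 140 CPM (0.93 ± 0.16 and 0.93 ± 0.10). PON2, a lactonase gene, rose by 1.03 ± 0.29 (1.28 ± 0.14), and the ferritin light chain gene FTL fell (-1.26 ± 0.34 and -1.65 ± 0.26). SESN2, which encodes sestrin 2, rose by 1.86 ± 0.40 with 6 libraries and by 1.24 ± 0.14 without PANC1OR replicate 3, where it was at 80.9 CPM against 31.4 and 30.9 CPM in replicates 1 and 2. Of 16 tested other NRF2 targets and regulators 2 rose and 1 fell (4 and 6 without PANC1OR replicate 3), with a median of -0.10 (-0.12). PIR, an iron-binding nuclear protein gene, fell from 40.2, 59.2 and 44.6 CPM to 13.04, 12.7 and 13.8 CPM (-1.86 ± 0.22 and -1.90 ± 0.18). MAFF, which encodes a small MAF partner, rose by 1.30 ± 0.35 (0.93 ± 0.23), and CBR3, a carbonyl reductase gene named after its value was seen, by 1.55 ± 0.39 (1.47 ± 0.40). OSGIN1 (1.39 ± 0.42) and RBX1 (-0.47 ± 0.20) did not pass with 6 libraries and passed without PANC1OR replicate 3, at 0.84 ± 0.24 and -0.57 ± 0.13.

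Of the 16 genes called in these lists only TXNRD1, TXNIP, SLC7A11, CHAC1, CAT and PIR, 6 in all, were called in each of the 6 fits that leave out 1 library. For these lists, too, the share over all called genes was not counted. IDH2 lost its call without PANC1 replicate 2 (adjusted p = 0.05505), and CBS without PANC1 replicate 1 or 2 (up to 0.0768). ANPEP and SESN2 lost theirs without PANC1 replicate 1, 2 or 3 (up to 0.088 and 0.0812). MAFF did so without any 1 PANC1 library or PANC1OR replicate 1 (up to 0.16), and TXNRD3 without PANC1 replicates 1 and 3 and PANC1OR replicates 1 and 2, each in turn (up to 0.0814). NNT, FTL, PON2 and CBR3 kept theirs only without PANC1OR replicate 3 (up to 0.113, 0.133, 0.148 and 0.148 otherwise).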

How the data were processed

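RNA sequencing of 3 PANC1 and 3 PANC1OR cultures was used as the authors' deposited raw read counts per Ensembl gene. The submitters' processing notes name FastQC 0.11.5, cutadapt through Trim Galore 0.4.2, STAR 2.5 with GRCh38, and featureCounts (Subread 1.6.2) as the counter. Annotation release, strand setting and handling of multi-mapping reads are not given in these sources, so reads of overlapping genes and near-identical copies cannot be told apart. Of the table's columns 5 were empty.

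Genes were kept with filterByExpr (minimum 10 reads), scaled with TMM factors and compared with edgeR 4.0.16 (R 4.3.3), quasi-likelihood F test, no covariates, 6 libraries, Benjamini-Hochberg adjustment over 18751 genes. The standard error is the log2 fold change divided by the root of F. CPM are counts per 1000000 of the TMM-adjusted total, and errors of levels are SD over 3 libraries. Depth was 10199268 to 26394388 reads. Limits from 0 reads cover counting error only. GENCODE release 44, on the same build, gave classes, exon lengths and GC content for 58207 of 58735 identifiers. The steps were tested on simulated data.

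The members and lists were chosen with earlier results of these data known. The naming rule gave library values for called members and 11 fixed ones, and up to 4 genes per list by p with a mean of at least 1 CPM. The values of 1 gene so named are not reported here. Alternatives were a likelihood ratio test, DESeq2 1.42.0, its size factors, no count filter, leaving out libraries, a replicate block and GC offsets. The GC offsets are the smoothed trend of each library's log2 deviation with GC content. No statement in the labels ties a replicate to a separate passage, so p-values measure the spread between these cultures.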

Additional observations from a re-analysis of the deposited data

How the results depend on the processing

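All 13 members called with 6 libraries kept direction and call with DESeq2, DESeq2 size factors in edgeR, the likelihood ratio test, GC offsets, without PANC1OR replicate 3, and with PANC1 replicate 2 and PANC1OR replicate 3 both left out. Without the count filter GSTO2 lost its call (adjusted p = 0.0767). Leaving out 1 library at a time gave 3 to 8 risen and 5 to 13 fallen members, and 1103 to 4340 risen and 718 to 4323 fallen genes over all. The members' counts moved by over 1.5 times without PANC1 replicate 1 or 3 (3 risen each) and without PANC1OR replicate 3 (13 fallen). Over all genes the same 3 libraries gave 1141 risen and 779 fallen, 1103 and 718, and 4340 and 4323, and 887 and 916 fell without PANC1OR replicates 1 and 2. With PANC1 replicate 2 and PANC1OR replicate 3 both left out 15 members rose and 15 fell, beside 5664 and 5758 of all genes. With GC offsets 11 and 11 members passed, beside 3749 and 3589 of all genes. With GC offsets and a replicate block together 9 members rose and 10 fell, beside 3247 and 3082 of all genes. The replicate block alone left 4 risen and 6 fallen members, beside 1402 and 922 of all genes, and the calls of GSS (adjusted p = 0.0609), GSTM3 (0.109) and GSTO2 (0.124) were lost. The block rests on replicate numbers, and whether these pair the libraries is not known. Deviations of same-numbered libraries correlated at 0.464, -0.446 and -0.22, and of the PANC1 libraries only replicate 1 correlated best with its own number. PANC1 replicate 2 and PANC1OR replicate 3, which depart by GC content, correlated at 0.512. The part of GC content in these correlations was not tested, so they do not settle whether same-numbered cultures were handled together. OPLAH turned from 0.10 to -0.97 without PANC1OR replicate 3 and to -0.93 with both libraries left out, within a range of -0.97 to 0.47 over the fits without 1 library. Of 140 list counts under alternatives 63 moved by more than 1.5 times. The cause of these changes was not tested. Genes under about 1 CPM, such as GGT5 and GPX3 in PANC1OR, rest on few reads.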
